A study of Homo sapiens with 6 samples.

Results

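The ezrin family and its Rac signaling partners comprise 10 genes here, chosen by name, and all 10 were among the 31999 genes listed for HEL cells. They are the ERM genes EZR, RDX and MSN, the exchange factor genes TIAM1, TIAM2, VAV1 and VAV3, and the GTPase genes RAC1, RAC2 and CDC42. HEL cells are an established line of human erythroleukemia. Their poly(A) RNA was sequenced from 3 libraries of cells carrying a control hairpin (shCtrl) and 3 libraries of cells carrying a hairpin against TMIGD2 (shTMIGD2). The hairpins were delivered by lentivirus, and both groups received 1 growth protocol. As a model, the groups rest on 1 cell line, and the labels name the 3 libraries of each as biological replicates without saying which TMIGD2 hairpin was used. The values described are mean levels over all 6 libraries, since the level was deposited as a single mean per gene, and the authors' own statistics of the group comparison were not used. Therefore, levels in shCtrl and shTMIGD2 cells were not compared here, no spread between libraries can be given, and the depth of each library is unknown.

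Ezrin, radixin and moesin are close relatives that tie the actin cortex to membrane proteins. In their closed form the head and tail of the protein bind each other, and phosphorylation near the tail end by kinases such as LOK, SLK and ROCK keeps the open form active. Rac and Cdc42 are molecular switches that are on when bound to GTP. Exchange factors of the TIAM and VAV families load them with GTP, GTPase-activating proteins (GAPs) turn them off, and guanine nucleotide dissociation inhibitors (GDIs) hold them in the cytosol. Active Rac and Cdc42 drive actin branching through the WAVE and WASP proteins and the Arp2/3 complex, and in blood cells this system is known for its part in shape change, migration and homing.

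The labelled cell type was first checked against its markers. All 11 erythroid markers and all 6 megakaryocyte markers were at 5 or higher on the scale of mean log2 CPM, where CPM is a gene's counted fragments scaled to a library total of 1e6, from 5.52 for EPOR to 11.09 for TFRC and from 5.86 for GP1BA to 10.54 for ITGA2B. Markers of other cell types were low or had no row. The highest was LYZ, a lysozyme of monocytes and granulocytes, at 4.40, followed by the T cell marker CD2 at 2.95 and the B cell marker CD79A at 2.32. No marker of B cells, T cells, monocytes, fibroblasts or epithelial cells reached 5. TMIGD2 itself had a mean log2 CPM of 4.08. This value pools the 3 libraries with a hairpin against TMIGD2 with the 3 controls, so it is not its level in control cells. HHLA2, its known ligand, had -3.66, close to the lowest value listed, -3.76.

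The 10 members were mostly abundant transcripts. On the same scale 9 of them were at 5 or higher, and the remaining member, TIAM2, had 1.08. Of all 31999 genes listed, 6031 were at 5 or higher. Their median was 7.23, whereas the median of all 31999 genes was -0.97 and that of the 14000 genes at 0 or more was 4.55. Moesin and CDC42 stood at the top, with 59 as the rank of MSN from the highest gene and 235 as that of CDC42.

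**Figure D1:**
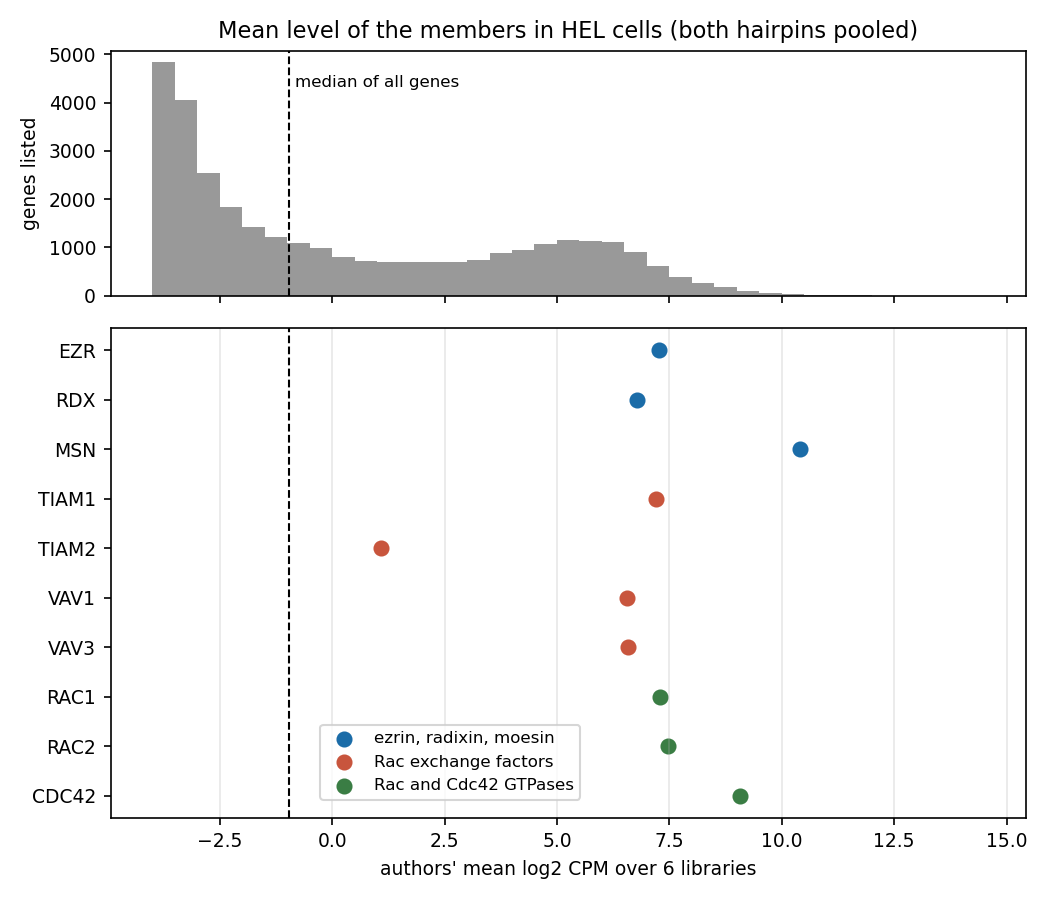
Upper panel, number of listed genes by mean log2 CPM; lower panel, mean log2 CPM of each member (point), colored by role, with the median of all genes as a dashed line. MSN lies farthest right at 10.39, TIAM2 lies apart at 1.08, and the other 8 members lie between 6.55 and 9.07.

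Among the ERM genes, MSN carried most of the transcript. MSN encodes moesin, the main ERM protein of blood cells, and lies on chromosome X (65588377 to 65741931, plus strand, in GRCh38 and GENCODE 44). Its mean log2 CPM was 10.39, or 1346 CPM, above 99.8% of the genes listed. EZR encodes ezrin, which was first described in microvilli of epithelial cells, and lies on chromosome 6 (158765741 to 158819368, minus strand). Its mean log2 CPM was 7.26, or 153.3 CPM. RDX encodes radixin, on chromosome 11 (109864295 to 110296712, minus strand), and had a mean log2 CPM of 6.79, or 110.4 CPM. Even the lowest of the ERM genes was above 93.5% of the genes listed.

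Levels of different genes were compared per kilobase of the longest protein-coding transcript, since a longer transcript gives more fragments. On this scale MSN had 327.6 CPM per kilobase, EZR 49.97 and RDX 25.1. MSN was thus 6.56 times EZR and 13.0 times RDX (5.11 times RDX with the median length of the protein-coding transcripts), and held 81.4% of the summed level of the ERM genes. NF2, which encodes merlin, a tumor suppressor related to the ERM proteins, had 7.22 CPM per kilobase, and the level of RDX was 3.48 times that of NF2. The order of EZR and RDX rests on the transcript length: with the median length of their protein-coding transcripts, RDX held 14.5% of the summed level and EZR 11.1%. MSN led under each length tried, with 74.4% to 83.8%.

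The exchange factor genes split into 3 at similar levels and 1 at a low level. TIAM1, on chromosome 21 (31118416 to 31559977, minus strand), encodes a Rac-specific exchange factor and had a mean log2 CPM of 7.20, or 147.0 CPM. TIAM2, its paralog on chromosome 6 (154832697 to 155257723, plus strand), had 1.08, or 2.12 CPM. Per kilobase TIAM1 was 66.2 times TIAM2, against 69.4 times without division by length and 74.2 times per kilobase of coding sequence. With the median transcript length it was 38.8 times. An overlap with a neighbor touched TIAM2: 6.16% of its annotated exonic bases also lie in exons of another gene on the same strand, the largest of them SCAF8, which had a mean log2 CPM of 6.66. The part of this overlap in the value of TIAM2 was not tested.

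VAV1 encodes the exchange factor of blood cells that acts below antigen and growth factor receptors and is switched on by tyrosine phosphorylation, and VAV3 encodes a more widely expressed relative. VAV1, on chromosome 19 (6772708 to 6857366, plus strand), had a mean log2 CPM of 6.55, or 93.6 CPM. VAV3, on chromosome 1 (107571161 to 107965180, minus strand), had 6.58, or 95.7 CPM. The third member of the family, VAV2, which is not among the 10, had 4.28, or 19.4 CPM. Per kilobase, VAV1 had 32.4 CPM, TIAM1 20.1, VAV3 19.0 and TIAM2 0.304, while VAV2 had 3.81. On this scale VAV1 was 8.51 times VAV2, but 4.82 times without division by length and 5.01 times per kilobase of coding sequence. VAV1, TIAM1 and VAV3 changed places with the length used, and no spread is at hand to order them.

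The GTPase genes summed to 872.6 CPM, the ERM genes to 1610 and the exchange factors to 338.4. The order of the first 2 groups turned with the length used: per kilobase of the longest transcript the GTPase genes had 240.1 CPM and the ERM genes 402.7, but per kilobase of coding sequence they had 1512 and 926.2, and with the median transcript length 573.8 and 451.2. The exchange factors were lowest on all 4 scales. RAC1, the Rac found in nearly all cells, lies on chromosome 7 (6374527 to 6403967, plus strand) and had a mean log2 CPM of 7.30, or 157.8 CPM. RAC2, the Rac restricted to blood cells, lies on chromosome 22 (37225270 to 37259594, minus strand) and had 7.47, or 177.5 CPM. RAC3, known best from the nervous system and not among the 10, had 5.13, or 35.0 CPM. CDC42, on chromosome 1 (22052627 to 22101360, plus strand), encodes the GTPase of filopodia and cell polarity and had 9.07, or 537.3 CPM.

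Per kilobase, RAC2 had 120.6 CPM, RAC1 68.3 and CDC42 51.2. RAC2 was 1.77 times RAC1 on this scale and 1.13 times without division by length or per kilobase of coding sequence. RAC2 thus lay above RAC1 on each scale, by a factor that no replicate spread can be set against. The place of CDC42 depended on the transcript length. Its longest protein-coding transcript has 10503 bases against 2309 for RAC1 and 1472 for RAC2, although the coding sequences have 576, 579 and 579 bases. CDC42 held 21.3% of the summed level of the GTPase genes per kilobase of the longest transcript, but 61.7% per kilobase of coding sequence and 34.3% with the median transcript length of 2730 bases.

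**Figure D2:**
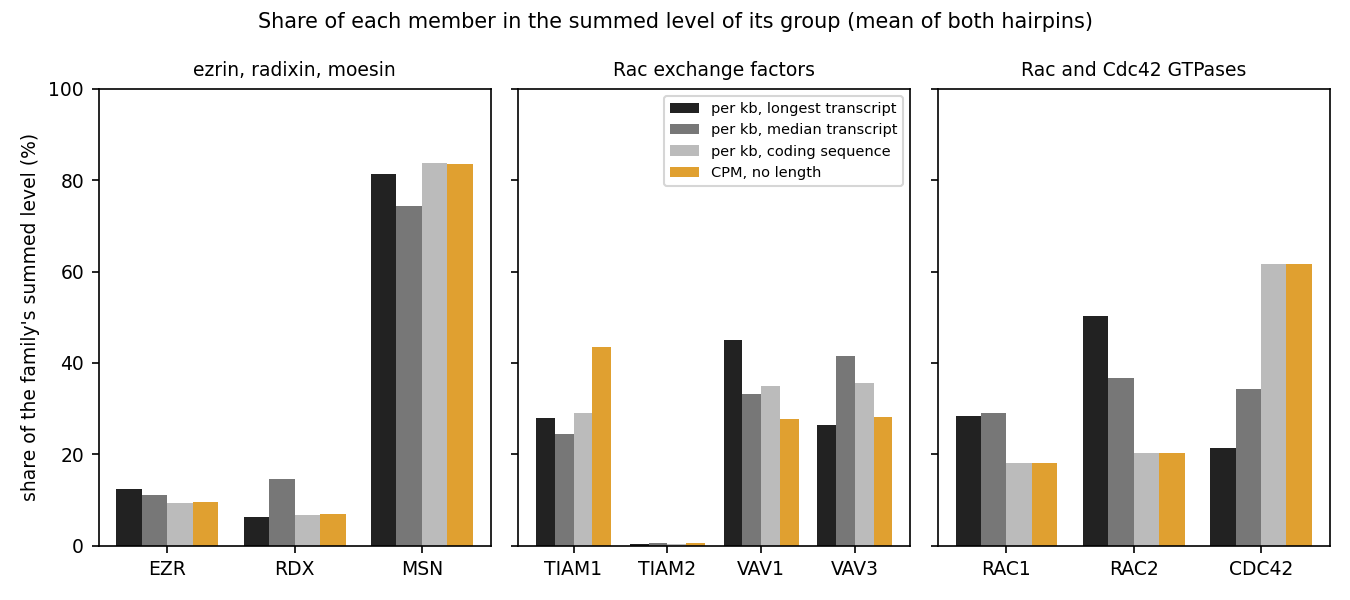
Share of the summed level (percent) that each gene holds within its group of members, as bars for 4 ways of handling transcript length, with no error bars since the table holds a single mean. MSN leads the ERM genes in all 4, whereas CDC42 moves between 21.3% and 61.7% of the GTPase genes.

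The GTPase genes encode nearly the same protein fold, so their coding sequences were compared to see how far a read can tell them apart. Over the whole coding sequence of the canonical transcripts (GENCODE 44, GRCh38), aligned end to end, RAC1 and RAC2 had 78.1% identical bases in the columns without a gap, RAC2 and RAC3 84.5%, and RAC1 and CDC42 71.6%. The longest run of identical bases between the transcripts of RAC1 and RAC2 was 33. Among the ERM genes, EZR and MSN shared 79.4% of bases, RDX and MSN 74.3%, and EZR and RDX 73.2%. TIAM1 and TIAM2 shared 71.3%, and VAV1 and VAV3 69.6%. None of the pairs compared shared a run of 50 bases, so that a read of that length or longer with no mismatch has a place in only one member of each pair.

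Processed pseudogenes were a nearer source of shared reads than the paralogs. Such pseudogenes are copies of a spliced transcript inserted elsewhere in the genome. Of the genes listed, 6 are named as pseudogenes of CDC42, 3 of RAC1 and 1 of MSN. The highest was CDC42P6, on chromosome 4 (22727375 to 22727950, minus strand), with 15.95 CPM. MSNP1, on chromosome 5 (25909503 to 25911234, plus strand), had 9.46 CPM, and RAC1P2, on chromosome 4 (46723830 to 46724408, minus strand), had 4.67 CPM. The other 7 pseudogenes lay between -2.66 and -0.91 on the log2 CPM scale. RAC1P2 differed from the RAC1 transcript at 4 of 579 aligned bases, CDC42P6 from CDC42 at 6 of 576 and MSNP1 from MSN at 66 of 1727. The remaining pseudogenes that were aligned had 87.0% to 96.2% identical bases. Of the copies aligned, which were all 3 of RAC1 and 5 of the 6 of CDC42, the highest was in each case the one with the largest share of identical bases.

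To show where reads could separate these copies, the 60 coding bases that differ most between member and pseudogene are given, with capitals at the differing bases. RAC1 is shown from coding base 434 to 493, CDC42 from 271 to 330 and MSN from 361 to 420, counted from the first base of the start codon.
RAC1: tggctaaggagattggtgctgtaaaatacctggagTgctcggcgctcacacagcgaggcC
RAC1P2: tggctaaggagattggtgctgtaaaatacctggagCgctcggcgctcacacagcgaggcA
CDC42: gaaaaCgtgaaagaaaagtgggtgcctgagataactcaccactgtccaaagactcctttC
CDC42P6: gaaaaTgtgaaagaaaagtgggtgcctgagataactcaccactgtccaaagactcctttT
MSN: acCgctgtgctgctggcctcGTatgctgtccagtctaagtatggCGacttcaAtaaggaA
MSNP1: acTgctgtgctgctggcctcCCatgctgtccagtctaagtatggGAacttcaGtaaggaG

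Even in these stretches RAC1 and CDC42 differed from their copies at only 2 of 60 bases, and MSN from MSNP1 at 7. The values of RAC1, CDC42 and MSN and of their pseudogenes are therefore uncertain to the extent that reads were split between them or left out, and how reads with several matches were handled is not given in the sources used here. The CPM counted in the pseudogene rows was small beside that of the members. Summed over their pseudogenes, CDC42 would gain 17.8 CPM (3.32%), RAC1 5.36 CPM (3.40%) and MSN 9.46 CPM (0.703%). Reads of a member that were discarded cannot be seen in these values, so the sums do not bound what a member may have lost.

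Each member's canonical transcript was also cut into all its words of 50 bases, and these were looked up in the transcripts of all other genes of GENCODE 44 on the same strand. TIAM1, TIAM2, VAV1, VAV3 and RAC2 had no word in another gene. EZR had 0.333% of its words in another gene, MSN 5.42%, RDX 6.01%, RAC1 17.3% and CDC42 22.2%. For MSN the only other gene was MSNP1, and for RAC1 most words were in RAC1P2. The shared words of RDX lay in RDXP1, RDXP2 and RDXP3, and those of EZR in EZRP1. These are processed pseudogenes without a row, so reads they may have taken from RDX and EZR cannot be seen here. For CDC42, 2004 of its 2317 shared words lay in ENSG00000289694, a protein-coding gene that the annotation places over CDC42 on the same strand. In all, CDC42 shared words of 50 bases with 736 other genes and words of 100 bases with 6. With words of 100 bases the share was still 11.6% for RAC1 and 19.2% for CDC42, but 0.363% for MSN and 0.373% for RDX.

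**Figure D3:**
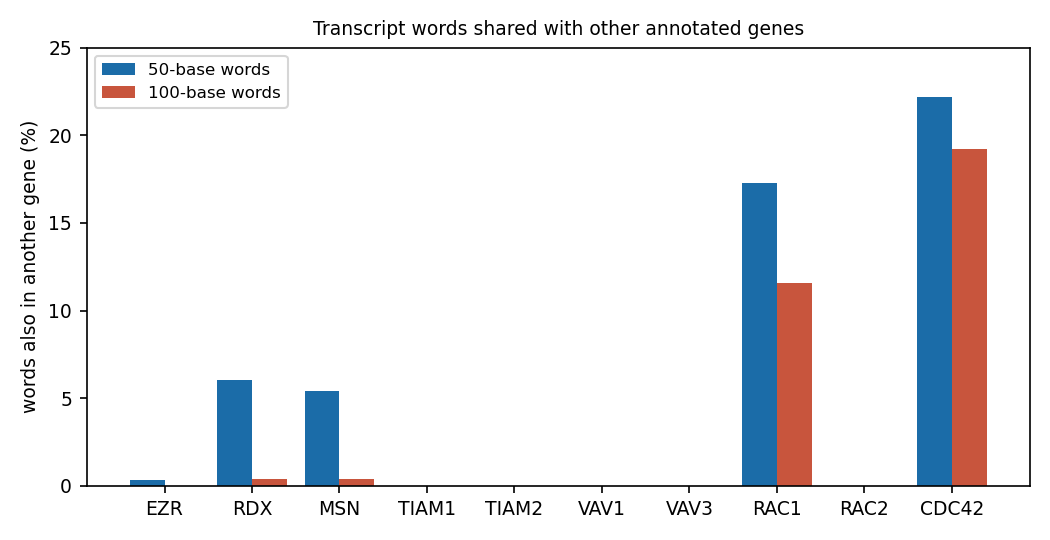
Share (percent) of the 50-base (blue) and 100-base (red) words of each member's canonical transcript that also stand in a transcript of another annotated gene. RAC1 and CDC42 keep 11.6% and 19.2% at 100 bases, while 5 members share none at either length.

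Annotated genes also overlap some members. VAV3-AS1, which runs against VAV3 over 738 bases, had a mean log2 CPM of -3.05, and CDC42-IT1, within CDC42 on the same strand, had -3.76. Both were at or close to the lowest value listed, with 0.126% of the CPM of VAV3 and 0.0137% of that of CDC42. RDX overlaps ZC3H12C on the opposite strand over 78450 bases of gene span, and ZC3H12C had 5.07. The libraries kept the strand, but the strand setting used in counting is not given in the sources used here. In exons on the same strand, 14.7% of the bases of CDC42 and 6.16% of those of TIAM2 were shared with another gene, and none in the other 8 members.

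The rest of the pathway was then described from 5 lists of 113 genes, of which 110 had a row. DOCK8, DOCK10 and PREX2 were not analysed here. Each list is given by its count at a mean log2 CPM of 0 or more, beside the 43.8% of all listed genes that reached it. That share covers many genes that are not protein-coding, and it is lower than the share of protein-coding genes at 0 or more. TIAM2, at 1.08, was above only 35.2% of the protein-coding genes, so most protein-coding genes reached 0. The list counts are therefore less distinctive than the 43.8% makes them look. The median was 3.65 for the 16307 listed genes named protein-coding in GENCODE 44, against -0.97 for all. In this part genes were set beside each other by mean log2 CPM without division by length, so their order may turn with length.

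Of the 15 partners and regulators of the ERM proteins, 14 were at 0 or more, with a median of 5.44. SPN, which encodes CD43, a sialoprotein that ERM proteins bind at the rear of leukocytes, was highest at 8.25, followed by the kinase genes ROCK1 at 7.33 and ROCK2 at 7.14. The other 2 kinase genes, STK10 (LOK) at 7.04 and SLK at 6.64, were close to them. ICAM3 was the only member of this list below 0. MSN was above all 15 on mean log2 CPM.

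The list of other exchange factors for Rac and Cdc42 also holds ELMO1, ELMO2 and ELMO3, which encode partners of DOCK proteins. Of its 33 genes with a row, 29 were at 0 or more, with a median of 5.44. The highest were SOS1 at 8.29, ARHGEF6, which encodes alpha-PIX, at 7.997 and ITSN2, which encodes a Cdc42 exchange factor of endocytic sites, at 7.37. On mean log2 CPM these 3 and DOCK2, a Rac exchange factor of blood cells, at 7.33, were the 4 at or above EZR. They were thus above TIAM1 on this scale, which takes no account of transcript length.

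Among the 20 genes of GAPs and GDIs, 18 were at 0 or more, with a median of 5.49. ARHGDIB, the GDI of blood cells, led at 9.40, above CDC42 on mean log2 CPM. ARHGDIA had 7.98 and RACGAP1, a GAP of the central spindle in dividing cells, 6.91. ARHGDIG at -1.90 and SRGAP3 at -2.08 were below 0.

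Of the 33 effectors of Rac and Cdc42, 28 were at 0 or more, with a median of 6.42. PAK2, a kinase switched on by Rac and Cdc42, led at 8.55, followed by WASF2, which encodes WAVE2, at 8.21 and the scaffold gene IQGAP1 at 7.97. All 9 genes of the Arp2/3 complex were at 0 or more, with a median of 7.47, the highest of the lists, and with ACTR2 at 10.21, ACTR3 at 8.98 and ARPC2 at 8.40. No gene of the 5 lists reached the mean log2 CPM of MSN, and levels per kilobase were not computed for the lists.

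**Figure D4:**
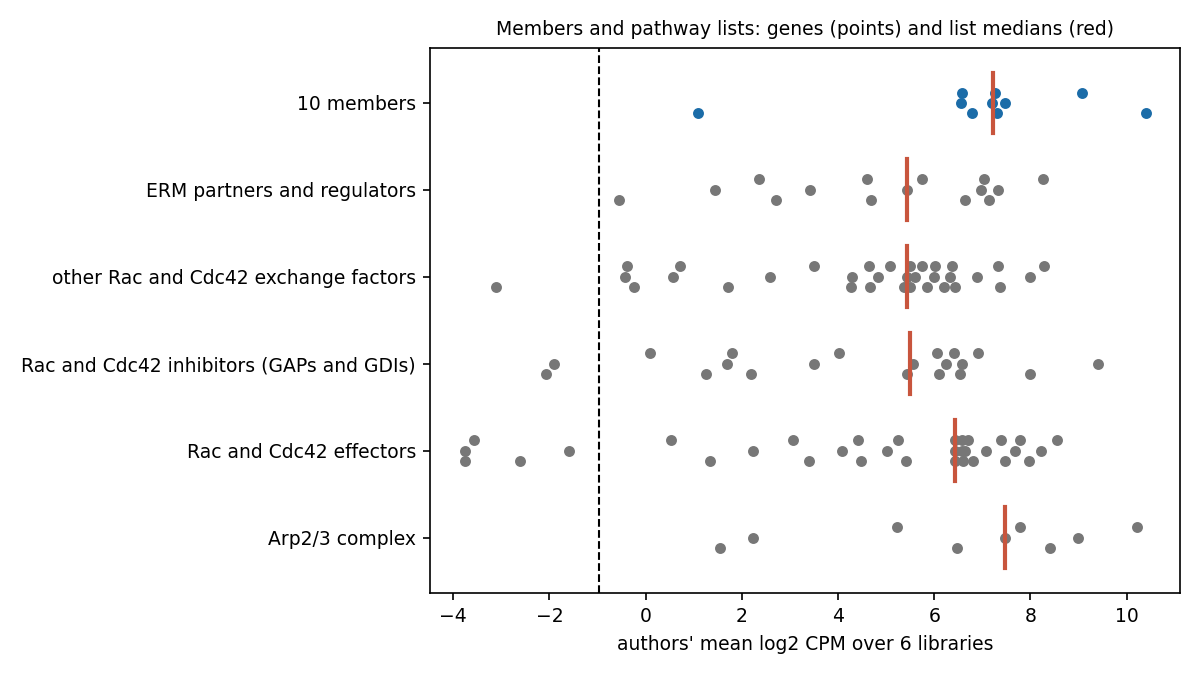
Mean log2 CPM of each gene (points) in the 10 members and in 5 pathway lists, with list medians as red bars and the median of all listed genes as a dashed line. The members' median of 7.23 lies below the 7.47 of the Arp2/3 complex and above the medians of the other 4 lists.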

How the data were processed

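Poly(A) RNA from 3 shCtrl and 3 shTMIGD2 HEL libraries was prepared with a directional kit and sequenced. Per the submitters' processing notes, the authors aligned reads to hg38 with STAR 2.6.1b, counted fragments per gene with HTSeq 0.6.1 and used DESeq2 3.11 and edgeR, whose column names the deposited table has. The deposited log2 values are the authors' average log2 CPM over all 6 libraries, called mean log2 CPM here. The column name does not say whether the average was taken before or after the log. The lowest value listed was -3.76, and values close to it may lie at a floor. The table's 4 other columns hold the authors' own comparison of the groups (a log2 fold change, a test statistic and p-values before and after adjustment) and were not used. No test between groups was therefore made, and depth and replicate spread are unknown. The sum of CPM over the genes listed came to 100.3% of 1e6.

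CPM was computed as 2 to the power of the mean log2 CPM. Gene positions, transcript lengths and sequences came from GENCODE 44 on GRCh38, the build of the authors' alignment, and all 10 members matched by symbol. The paper names RefSeq as the annotation used for counting, so the overlaps and shared words found in GENCODE 44 need not apply to the counts. Coding sequences were aligned with Biopython 1.88 (match 2, mismatch -3, gap opening -5, gap extension -2) under Python 3.11.15. The scripts were tested on simulated data. Protein identities had been planned, but a protein table was not used here, and coding sequences took their place. Genes were named by a rule: the members and their nearest relatives, the 3 highest genes of each list, genes without a row, TMIGD2, HHLA2, and rows named after a member. STK10, SLK, DOCK2, ICAM3, ARHGDIG and SRGAP3 were named after their values were seen, as were neighbors that overlap a member. RDXP1, RDXP2, RDXP3 and EZRP1 were named from the search for shared words. 1 gene list, 1 relative of the members and 1 set of sequences are not reported here. The members and lists were chosen with earlier results of these data known.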

Additional observations from a re-analysis of the deposited data

How the results depend on the processing

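Each alternative was set against the reported value and counted as moved when it differed by more than 1.5 times. Of 146 alternatives, 102 stayed within that factor, including all 13 for levels in CPM and all 13 for coding identity. Those for levels could not move that far. They subtract the lowest listed CPM, 0.0736, or add the pseudogene rows, at most 3.40% of a member. Their staying within the factor therefore says nothing about how stable the levels are. Those for coding identity only count the columns with a gap as well. Without division by length, the share of the summed level went to 43.4% for TIAM1, 27.7% for VAV1, 18.1% for RAC1, 20.3% for RAC2 and 61.6% for CDC42. Per kilobase of coding sequence it was 18.02% for RAC1, 20.3% for RAC2 and 61.7% for CDC42. With the median transcript length, chosen after seeing the data, it was 14.5% for RDX, 41.6% for VAV3 and 34.3% for CDC42. Of 48 values for ratios between genes under another length, chosen after seeing the data, 25 moved. The division by different lengths gives these changes by construction. With a threshold of 5 in place of 0, counts fell to 8 for the ERM partners, 19 for the exchange factor list and 11 for GAPs and GDIs. Over all 31999 genes listed the count fell from 14000 to 6031. TIAM2 was above 61.4% of all genes, 35.2% of protein-coding genes and 11.9% of genes at 0 or more. Leaving out each library was not run, since the table holds no values per library. No paired analysis was possible because the table gives a single mean over both groups.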

Other observations

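ARPC1A and ARPC1B, which encode alternative forms of the same subunit of the Arp2/3 complex, had mean log2 CPM values of 2.23 and 1.56, while the other 7 genes of the complex lay between 5.22 and 10.21. Their choice followed a look at these values. In GENCODE 44, 58.6% of the exonic bases of ARPC1A and 23.1% of those of ARPC1B also lie in exons of ENSG00000284292, a gene on the same strand. CDC42EP2, at -3.76, was the gene of the lists with the largest such overlap, 86.6%. The paper names RefSeq, not GENCODE, as the annotation used for counting, and the overlapping genes had no row under these names. Their part in these values was not tested.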
